A study of Homo sapiens with 18 samples.

Results

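The genes described here are the 10 that carry out or direct the making, desaturation and lengthening of fatty acids: SREBF1, ACLY, ACSS2, ACACA, FASN, SCD, FADS1, FADS2, ELOVL5 and ELOVL6. They were taken by symbol from the deposited table of expected counts, with earlier results of these data known, and are 10 of the 58870 genes listed there. All 10 had enough counts to be tested, among 15787 genes that did. The cells are NCI-H295R, an established human adrenocortical carcinoma line, and the 18 libraries fall into 6 groups of 3 biological replicates, all collected at 48 h. The groups were untreated cells and cells given STA9090 (ganetespib, which blocks the HSP90 chaperone), PIK75 (an inhibitor of PI3K), BGT226 (an inhibitor of PI3K and mTOR), STA9090+PIK75 or STA9090+BGT226. The stated dose was 20 nM, without saying how much of each agent a combination held. No vehicle for the untreated cells is given in the sources used here, and all libraries come from 1 cell line. The title of the series concerns PI3K and HSP90 inhibition together, so each agent was set against untreated cells, and each combination against its parts.

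Fatty acid synthesis in the cytosol starts from acetyl-CoA, which ACLY makes from citrate and ACSS2 makes from acetate. ACACA carboxylates it to malonyl-CoA, FASN builds palmitate, ELOVL6 lengthens palmitate, and SCD puts a double bond into the saturated chains, while FADS1, FADS2 and ELOVL5 act on polyunsaturated chains. SREBF1 encodes the membrane-bound transcription factor that, once cut and moved to the nucleus, drives most of these genes, and signalling through PI3K, AKT and mTOR is known to raise its activity. In the adrenal cortex, fatty acids esterify the cholesterol that is stored in droplets as the substrate of steroid hormones.

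Library totals ran from 10.24 to 21.13 M expected counts, with the deepest and the shallowest library both in the BGT226 group. Transcripts of RNA polymerase III made up 28.6% to 40.4% of each total and mitochondrial mRNA 4.71% to 10.7%, and the groups overlapped in both. The 10 genes together held 0.174% to 0.515% of the total. Levels are given in CPM, counts scaled to 1 M reads with the library factors described under the processing. The cells carried the markers of their label: all 7 adrenocortical markers were tested and summed to 998 to 2636 CPM. Of the markers of other cells, 0 of 4 adipocyte, 0 of 4 hepatocyte and 0 of 3 endothelial genes had enough counts to be tested, and their summed levels stayed at or below 1.52 CPM. The 4 fibroblast markers summed to at most 11.4 CPM and the 3 leukocyte markers to at most 1.184 CPM. In bulk RNA, fewer cells of a kind and less RNA per cell cannot be told apart.

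The stretches upstream of 4 of the genes are shown because most of the genes fell together and share a known regulator. RefSeq (GRCh38.p14) gave 14 promoter entries for 9 of the 10 genes, and FASN had none. The part of the 250 bases before the start that lies outside every exon of GENCODE 29 is printed, 5′ to 3′ on the strand of the gene, with CCAAT or its reverse complement in capitals. SCD lies at chr10:100346983-100347123 on the plus strand, ACLY at chr17:41919023-41919272, SREBF1 at chr17:17837003-17837236 and ELOVL6 at chr4:110198677-110198841, the last 3 on the minus strand.
SCD: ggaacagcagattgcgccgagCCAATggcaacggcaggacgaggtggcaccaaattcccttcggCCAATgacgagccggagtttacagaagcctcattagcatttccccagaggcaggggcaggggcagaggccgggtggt
ACLY: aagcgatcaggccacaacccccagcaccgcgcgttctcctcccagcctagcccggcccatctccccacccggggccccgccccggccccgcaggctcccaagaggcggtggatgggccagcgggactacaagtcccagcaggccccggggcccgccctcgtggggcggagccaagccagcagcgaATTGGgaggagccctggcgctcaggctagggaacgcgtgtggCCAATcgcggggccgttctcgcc
SREBF1: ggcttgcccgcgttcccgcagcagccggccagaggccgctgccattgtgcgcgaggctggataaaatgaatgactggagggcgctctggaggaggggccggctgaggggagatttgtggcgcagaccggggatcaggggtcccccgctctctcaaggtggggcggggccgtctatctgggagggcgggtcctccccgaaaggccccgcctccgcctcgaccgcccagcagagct
ELOVL6: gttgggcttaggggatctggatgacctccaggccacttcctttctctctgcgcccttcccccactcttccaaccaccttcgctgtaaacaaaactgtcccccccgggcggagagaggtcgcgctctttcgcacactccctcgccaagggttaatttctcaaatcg
Motifs were searched on both strands in the whole 250 bases. CCAAT, the box bound by NF-Y, was found in at least 1 entry of 5 of the 9 genes (SCD, ACLY, ACACA, ACSS2 and ELOVL5) and of 37% of 27305 genes with entries, and in 7 of the 14 entries against 32% of all 35116. TCACNCCAC, a form of the sterol regulatory element, was found before 0 of the 9, near the 1.09% of all genes. GGGCGG, the GC box, was found before 8 and before 46.2% of all genes, and CACGTG, an E-box, before ELOVL5 alone and before 7.73% of all genes. These are matches of letters, and a motif that is absent from this window may lie elsewhere. Other forms of the sterol regulatory element were not searched, so these windows may hold them.

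Between 5 and 10 of the 10 genes fell with each treatment that held a PI3K inhibitor. Of all genes tested, 10.2% to 20.4% fell in those treatments. With STA9090 alone 0 of the 10 fell, near the 1.68% of all genes that did. In any treatment set against untreated cells, 0 of the 10 rose. Of all genes, 12.8% to 19.4% rose with BGT226 or a combination. The summed level of the 10 genes was 4451, 4983 and 4556 CPM in the untreated libraries and 3703, 4215 and 4368 with STA9090. It was 3691, 3572 and 3768 with PIK75 and 2175, 2200 and 2135 with BGT226. It was 2372, 2338 and 2444 with STA9090+PIK75 and 1777, 1669 and 1827 with STA9090+BGT226. Every library with BGT226 or with a combination lay below every other library, and the STA9090+BGT226 libraries were the lowest of all.

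**Figure D1:**
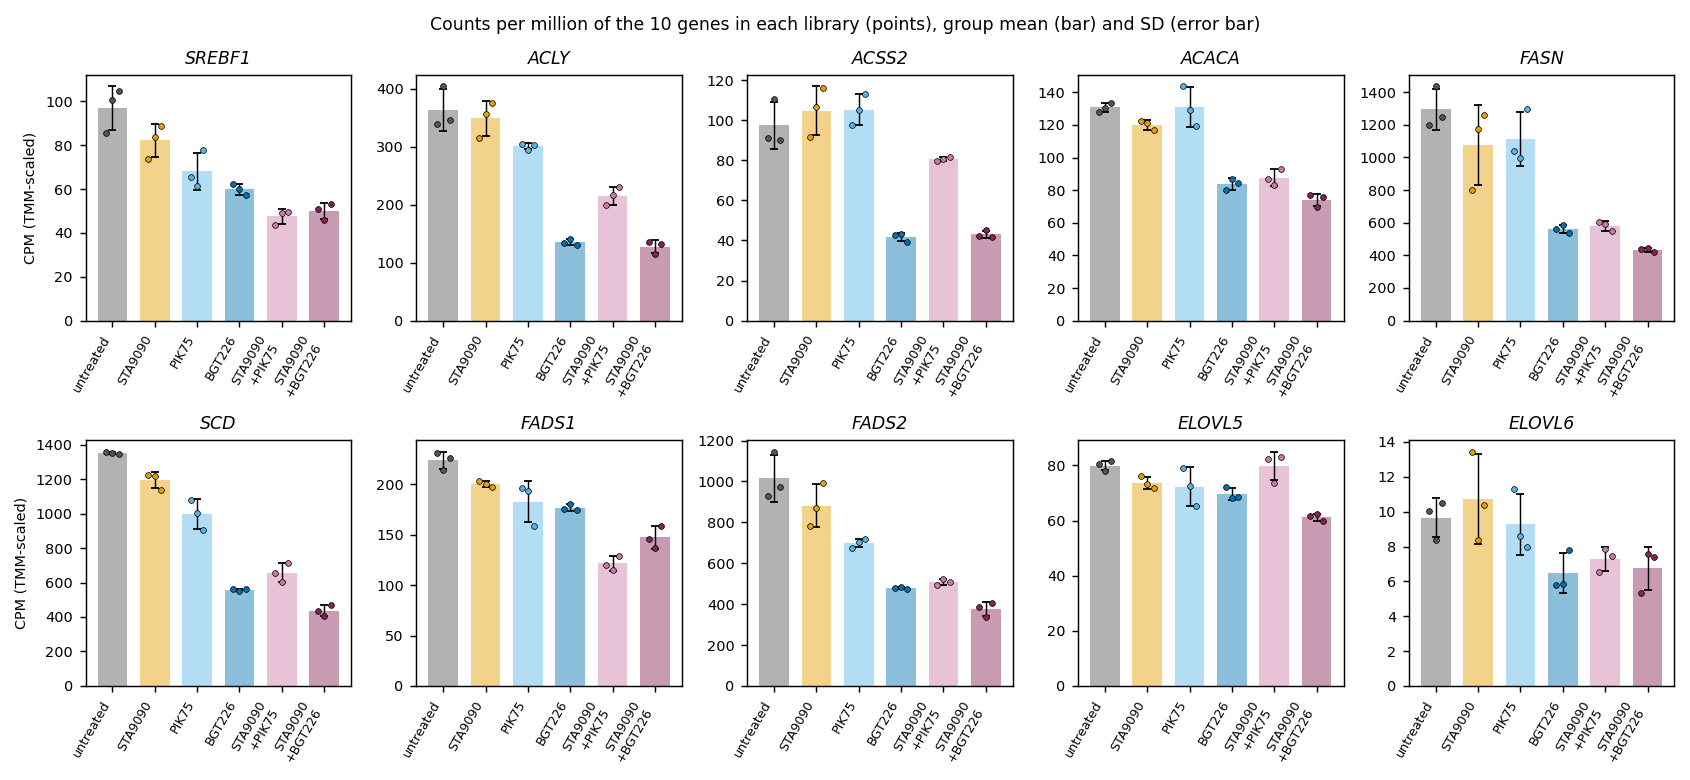
Level of each of the 10 genes in CPM (vertical axes, each from 0) in the 6 groups, with a point for each library, a bar for the mean of 3 and an error bar for the SD. SCD falls from a mean of 1353 CPM in untreated cells to 557 with BGT226 and 437 with STA9090+BGT226, whereas ELOVL5 stays between 61.2 and 80.0.

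Each treatment was tested against untreated cells with edgeR's quasi-likelihood F-test, with Benjamini-Hochberg adjustment over all genes tested and a threshold of 0.05. With BGT226 all 10 genes fell, where 15.7% of all genes tested fell, and their median log2 fold change was -0.89 against 0.011 over all genes. With STA9090+BGT226 all 10 fell as well (20.4% of all genes), with a median of -1.07 against 0.032. With STA9090+PIK75, 8 fell (20.1% of all genes), with a median of -0.82 against 0.015, and ELOVL5 and ELOVL6 did not pass (ELOVL6 passed with no filter on low counts, adjusted p = 0.0363, and in the fit of those 2 groups alone, 0.0443). With PIK75 alone, 5 fell (10.2% of all genes), namely SREBF1, SCD, ACLY, FADS1 and FADS2, and the median over the 10 was -0.24. With STA9090 alone 0 of the 10 passed in edgeR (1.68% of all genes fell) and 0 in DESeq2. At an unadjusted edgeR p under 0.05, 1 of the 10 passed, SREBF1, where 18.4% of all genes did in either direction. SCD, ACACA, ELOVL5 and FADS1 were lower in all 3 STA9090 libraries than in all 3 untreated ones, as were 10.3% of all genes, and the median of the 10 was -0.14. These 5 comparisons share the untreated libraries.

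Marker levels also moved with STA9090+PIK75. The summed adrenocortical markers were at 2092 to 2515 CPM in untreated cells, 1291 to 1483 with PIK75 and 998 to 1045 with STA9090+PIK75, and at 2015 to 2134 with BGT226 and 2393 to 2606 with STA9090+BGT226. The summed fibroblast markers were at 8.46 to 11.4 CPM in untreated cells and 0.804 to 1.184 with STA9090+PIK75, mostly from COL1A1, a collagen gene, which changed by -3.50 ± 0.25 there (adjusted p = 1.25e-09), and COL3A1 was at 0 in all 3 of those libraries. The summed leukocyte markers were at 0.338 to 0.676 CPM in untreated cells and 0.714 to 1.184 with STA9090+PIK75. Of these, CD14 rose by 1.16 ± 0.39 (adjusted p = 0.0231), CD3E was at 0 in every library and PTPRC in all but 1. The part of these markers in the results for the 10 genes was not tested.

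**Figure D2:**
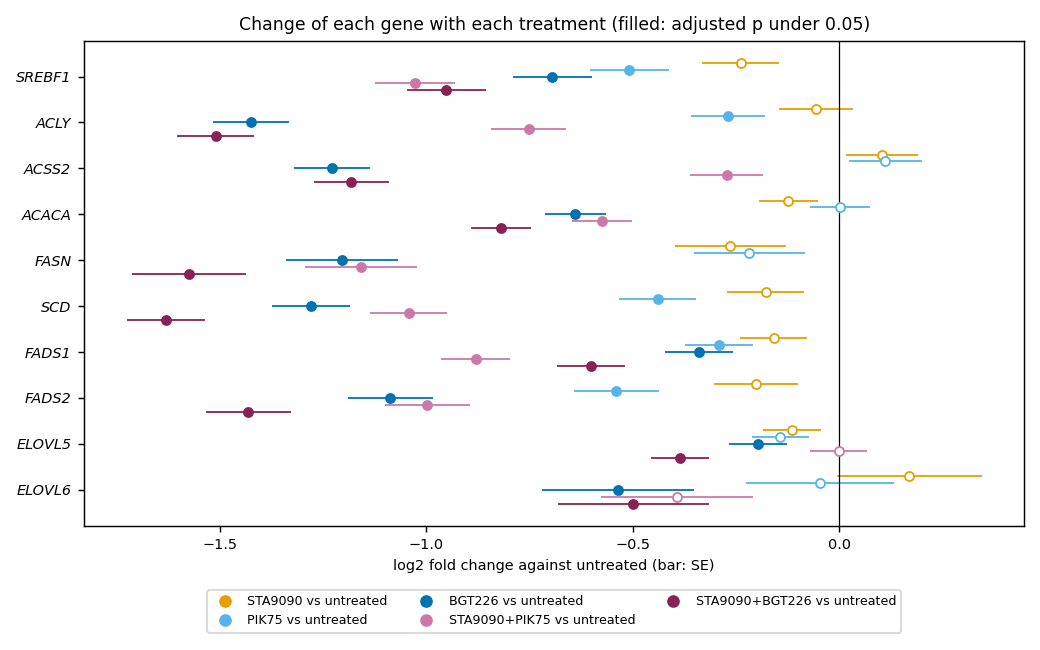
Log2 fold change of each gene against untreated cells (horizontal axis) for the 5 treatments, as a point with its SE, filled where the adjusted p is under 0.05. The BGT226 and STA9090+BGT226 points are all filled and reach -1.43 for ACLY and -1.63 for SCD, and all STA9090 points are open.

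SREBF1 (ENSG00000072310.16, chromosome 17, 17810399 to 17837002, minus strand), the regulator, was measured at 85.6, 100.5 and 104.5 CPM in untreated cells, 73.9, 83.7 and 88.9 with STA9090, 65.3, 61.4 and 77.7 with PIK75, and 62.4, 60.1 and 57.3 with BGT226. It was 43.8, 49.2 and 49.5 CPM with STA9090+PIK75 and 50.8, 45.9 and 53.4 with STA9090+BGT226. STA9090 libraries overlapped untreated ones, and both combinations lay below every single agent. SREBF1 fell by 0.51 ± 0.09 (log2, SE) with PIK75, by 0.70 ± 0.10 with BGT226, by 1.03 ± 0.10 with STA9090+PIK75 and by 0.95 ± 0.10 with STA9090+BGT226, at edgeR adjusted p from 0.000735 to 6.56e-08. It did not separate the inhibitors: BGT226 against PIK75 gave -0.19 (95% interval -0.37 to 0.0015, adjusted p = 0.148) and the combinations against each other 0.07 (-0.12 to 0.27, adjusted p = 0.573). The annotated span of SREBF1 overlaps RAI1 on the opposite strand, only from 17810399 to 17811453. RAI1 as a whole gene holds 131.8% as many counts, and how many lie in the overlap is not known. The libraries were stranded, but the strand setting used in counting is not given in the sources used here, so reads of opposite genes may be mixed. RAI1 itself did not pass in any comparison with untreated cells.

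The enzymes that supply acetyl-CoA separated the inhibitors most. ACLY (ENSG00000131473.17, chromosome 17, 41866908 to 41930542) was at 339, 405 and 347 CPM in untreated cells, 316, 356 and 376 with STA9090, 306, 295 and 304 with PIK75, and 134, 141 and 131 with BGT226. With STA9090+PIK75 it was at 199.7, 216 and 231 CPM and with STA9090+BGT226 at 136, 115 and 132. The BGT226 libraries stood below all PIK75 libraries by more than the spread of either group. ACLY fell by 62.8% with BGT226 and by 17.1% with PIK75, and BGT226 against PIK75 was -1.16 ± 0.09 (edgeR adjusted p = 1.18e-08). The fall with PIK75 (adjusted p = 0.0423) lost its call without untreated replicate 2 (0.182), without untreated replicate 3 or any of the 3 PIK75 libraries (0.0532 to 0.119), with RLE scaling (0.0505) and in the fit of those 2 groups alone (0.133).

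ACSS2 (ENSG00000131069.20, chromosome 20, 34872146 to 34927962), the acetate-using enzyme, was at 91.3, 110.8 and 90.2 CPM in untreated cells, 91.8, 106.8 and 115.9 with STA9090, and 97.8, 105.2 and 113 with PIK75. The 3 groups overlapped. It was at 43.0, 43.0 and 39.2 CPM with BGT226 and at 42.4, 45.1 and 41.6 with STA9090+BGT226, and these groups had means of 42.8% and 44.1% of the untreated mean. With STA9090+PIK75 it was at 79.8, 80.4 and 81.8 CPM, below every untreated library. The log2 fold change was -1.23 ± 0.09 with BGT226 and 0.11 ± 0.09 with PIK75 (adjusted p = 0.424), and BGT226 against PIK75, -1.34 ± 0.09 (adjusted p = 1.74e-09), was the widest gap between these 2 inhibitors among the 10 genes. The fall with STA9090+PIK75, -0.27, lost its call without untreated replicate 2 (-0.17, adjusted p = 0.138) and without STA9090+PIK75 replicate 1 (0.0517) or replicate 2 (0.0512). ACSS2 overlaps GGT7 on the opposite strand, only from 34872146 to 34872860, and GGT7 as a whole gene holds 23.2% as many counts.

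ACACA (ENSG00000278540.5, chromosome 17, 37084988 to 37406818), the carboxylase that commits acetyl-CoA to synthesis, was at 128, 130.2 and 133.5 CPM in untreated cells, 122, 121 and 117 with STA9090, and 143.7, 129.3 and 119.3 with PIK75. It was at 80.1, 87.0 and 84.4 CPM with BGT226, 86.8, 82.9 and 93.2 with STA9090+PIK75, and 76.7, 69.7 and 75.6 with STA9090+BGT226. PIK75 libraries lay around the untreated ones, and the log2 fold change was 0.0015 (95% interval -0.14 to 0.14). The fall was of similar size with BGT226, -0.64 ± 0.07, and with STA9090+PIK75, -0.58 ± 0.07, and larger with STA9090+BGT226, -0.82 ± 0.07 (edgeR adjusted p from 3.40e-06 to 5.07e-08). ACACB, which encodes the other carboxylase and is tied to the regulation of mitochondrial uptake of fatty acids, moved differently: it fell by 0.33 with STA9090+PIK75 and did not pass with BGT226 (-0.09). Its fall with PIK75 (-0.21, adjusted p = 0.0463) lost its call with RLE scaling, with no filter, with DESeq2, in the fit of those 2 groups alone, and without any of the 3 untreated libraries or PIK75 replicate 1 or 2 (adjusted p 0.0529 to 0.187).

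FASN (ENSG00000169710.9, chromosome 17, 82078333 to 82098332, minus strand), the synthase, was at 1199, 1436 and 1247 CPM in untreated cells, 799, 1174 and 1259 with STA9090, and 1038, 998 and 1299 with PIK75. It was at 563, 583 and 539 CPM with BGT226, 602, 590 and 546 with STA9090+PIK75, and 441, 442 and 420 with STA9090+BGT226. STA9090 replicate 1 was well below the other STA9090 libraries, and the last 3 groups did not overlap the first 3. FASN changed by -56.6% with BGT226, by -55.2% with STA9090+PIK75 and by -66.4% with STA9090+BGT226. Neither STA9090 (-0.26 ± 0.13, adjusted p = 0.303) nor PIK75 (-0.22 ± 0.13, adjusted p = 0.284) passed alone.

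SCD (ENSG00000099194.6, chromosome 10, 100347124 to 100364834, plus strand), the desaturase that makes monounsaturated chains, was the most even gene in untreated cells, at 1358, 1354 and 1345 CPM. It was at 1226, 1220 and 1139 CPM with STA9090, 1078, 1006 and 907 with PIK75, and 561, 548 and 561 with BGT226. With STA9090+PIK75 it was at 655, 601 and 714 CPM and with STA9090+BGT226 at 433, 406 and 472. The libraries of each group overlapped those of no other group. SCD fell by 26.3% with PIK75, 58.8% with BGT226, 51.5% with STA9090+PIK75 and 67.7% with STA9090+BGT226, the last being -1.63 ± 0.09 (edgeR adjusted p = 1.91e-10), the largest fall of any of the 10 genes. SCD5, the other stearoyl-CoA desaturase gene, fell by 0.41 with PIK75, 0.36 with BGT226, 0.69 with STA9090+PIK75 and 0.19 with STA9090+BGT226. In the direct comparison of the combinations, STA9090+BGT226 stood below STA9090+PIK75 for SCD (-0.59 ± 0.09) and above it for SCD5 (0.50 ± 0.07, adjusted p = 1.72e-05).

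The neighbouring desaturase genes FADS2 and FADS1 were lowest in different combinations. FADS2 (ENSG00000134824.14, chromosome 11, 61792980 to 61867354, plus strand) was at 928, 1146 and 971 CPM in untreated cells, 781, 872 and 993 with STA9090, 675, 703 and 716 with PIK75, and 478, 483 and 472 with BGT226. It was at 495, 521 and 508 CPM with STA9090+PIK75 and 385, 338 and 407 with STA9090+BGT226. FADS1 (ENSG00000149485.18, chromosome 11, 61799625 to 61829318, minus strand) was at 231, 214 and 226 CPM in untreated cells, 203, 201 and 198 with STA9090, 197, 193 and 159 with PIK75, and 176, 181 and 174 with BGT226.

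FADS1 was lowest with STA9090+PIK75, at 120.1, 115.3 and 129.3 CPM, and it was at 145.8, 137.3 and 159.2 with STA9090+BGT226. Like SCD, FADS2 thus had its lowest libraries under STA9090+BGT226, and FADS1 did not. Over the 18 libraries SCD correlated at 0.969 with FADS2 and at 0.733 with FADS1, and FADS1 with FADS2 at 0.739. The difference between FADS1 and FADS2 was not tested. With BGT226, FADS2 fell by 53.0% and FADS1 by 20.98%. FADS1 was the 1 gene of the 10 that passed as higher with STA9090+BGT226 than with STA9090+PIK75, where 22.4% of all genes did. The difference was 0.28 ± 0.08 (edgeR adjusted p = 0.00957), and that call was lost without STA9090+BGT226 replicate 3 (0.20, adjusted p = 0.0895). BGT226 and PIK75 alone did not separate FADS1 (-0.05, 95% interval -0.21 to 0.11). The fall of FADS1 with PIK75, -0.29, lost its call without untreated replicate 1 (adjusted p = 0.0595), without PIK75 replicate 3 (0.0855) and in the fit of those 2 groups alone (0.0929). FADS1 lies within the annotated span of FADS2 on the opposite strand and held 26.9% as many counts, and FEN1, a replication nuclease, overlaps that span on the same strand with 7.83% as many. FEN1 itself fell with BGT226 (-0.34 ± 0.08, edgeR adjusted p = 0.00233) and with STA9090+BGT226 (-0.65 ± 0.08, 1.65e-06). It did not pass with PIK75 (-0.12) or STA9090+PIK75 (-0.16). How reads of the 3 genes were divided is uncertain.

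Of the 10 genes, ELOVL5, an elongase of polyunsaturated chains, had the smallest fall with BGT226 and with STA9090+BGT226. ELOVL5 (ENSG00000012660.14, chromosome 6, 53267398 to 53349179) was at 80.4, 78.0 and 81.5 CPM in untreated cells, 76.2, 73.2 and 71.9 with STA9090, 79.3, 72.4 and 65.4 with PIK75, 72.2, 68.3 and 68.6 with BGT226, and 61.5, 62.3 and 59.8 with STA9090+BGT226. With STA9090+PIK75 it was at 82.4, 73.8 and 83.3 CPM, around the untreated libraries, and the log2 fold change was -0.0024 (95% interval -0.14 to 0.13). It fell by 12.8% with BGT226 and by 23.5% with STA9090+BGT226. The fall with BGT226 (adjusted p = 0.0389) lost its call when any of the 6 libraries was left out (adjusted p 0.0526 to 0.122) and with no filter on low counts (0.0929).

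ELOVL6 (ENSG00000170522.9, chromosome 4, 110045846 to 110199199) was the least counted of the 10, with 59 to 212 counts in a library. It was at 10.1, 8.39 and 10.5 CPM in untreated cells, 13.5, 8.37 and 10.4 with STA9090, and 11.3, 8.58 and 7.95 with PIK75. It was at 5.82, 5.82 and 7.79 CPM with BGT226, 6.52, 7.87 and 7.47 with STA9090+PIK75, and 5.34, 7.55 and 7.39 with STA9090+BGT226. The last 3 groups lay below all untreated libraries. The falls were -0.54 ± 0.18 with BGT226 (adjusted p = 0.0334) and -0.50 ± 0.18 with STA9090+BGT226 (0.0359), and -0.39 ± 0.18 with STA9090+PIK75 did not pass (0.0992). The BGT226 call was lost without untreated replicate 1 or 3 or BGT226 replicate 1 or 2 (adjusted p 0.0832 to 0.114), and the STA9090+BGT226 call without untreated replicate 1 or 3 or STA9090+BGT226 replicate 1 (0.0778 to 0.153).

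Adding STA9090 to PIK75 lowered most of the genes further. Against PIK75 alone, 8 of the 10 fell (14% of all genes), led by FASN at -0.94 ± 0.14, with ELOVL5 (0.14) and ELOVL6 (-0.35) not passing. Without PIK75 replicate 1, ELOVL5 passed there as higher (0.22, adjusted p = 0.0457). Against STA9090 alone, 9 fell (19.8% of all genes), by 0.38 for ACSS2 to 0.89 for FASN. The ELOVL6 call there did not survive the removal of STA9090 replicate 1 (adjusted p = 0.162) or of STA9090+PIK75 replicate 1 (0.0711). The interaction, the log2 fold change of the combination minus the sum of the changes with each agent, asks whether the combination went beyond that sum. It passed for 6 of the 10 genes, each below the sum, where 5.73% of all genes passed in that direction. FASN was at -0.67 ± 0.19 (adjusted p = 0.0298), ACSS2 at -0.49 ± 0.12 (0.0180), ACACA at -0.45 ± 0.10 (0.00827), FADS1 at -0.43 ± 0.12 (0.0238), ACLY at -0.43 ± 0.13 (0.0413) and SCD at -0.42 ± 0.13 (0.0460). ACSS2 was at 108% of the untreated mean with either agent and at 82.8% with both. ELOVL5 was on the other side of the sum (0.26 ± 0.10, adjusted p = 0.113), and passed as higher without PIK75 replicate 1 (0.34, adjusted p = 0.0425).

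Only ACACA kept its interaction call in every alternative run. In the fit of the 4 groups alone it was the 1 call left, and leaving out 1 library at a time left 2 to 5 of the 6 calls. SCD passed in such fits only without STA9090 replicate 3 or PIK75 replicate 3, and was also lost with no filter on low counts (adjusted p = 0.0947). ACLY passed only without untreated replicate 2, STA9090 replicate 1 or STA9090+PIK75 replicate 3. FASN was lost without untreated replicate 1 or 3, STA9090 replicate 2 or 3, PIK75 replicate 3 or STA9090+PIK75 replicate 2 or 3 (adjusted p 0.0520 to 0.0826). FADS1 was lost without PIK75 replicate 1 or 2 or STA9090+PIK75 replicate 2 (0.0597 to 0.0808), and ACSS2 without untreated replicate 1 (0.0591).

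**Figure D3:**
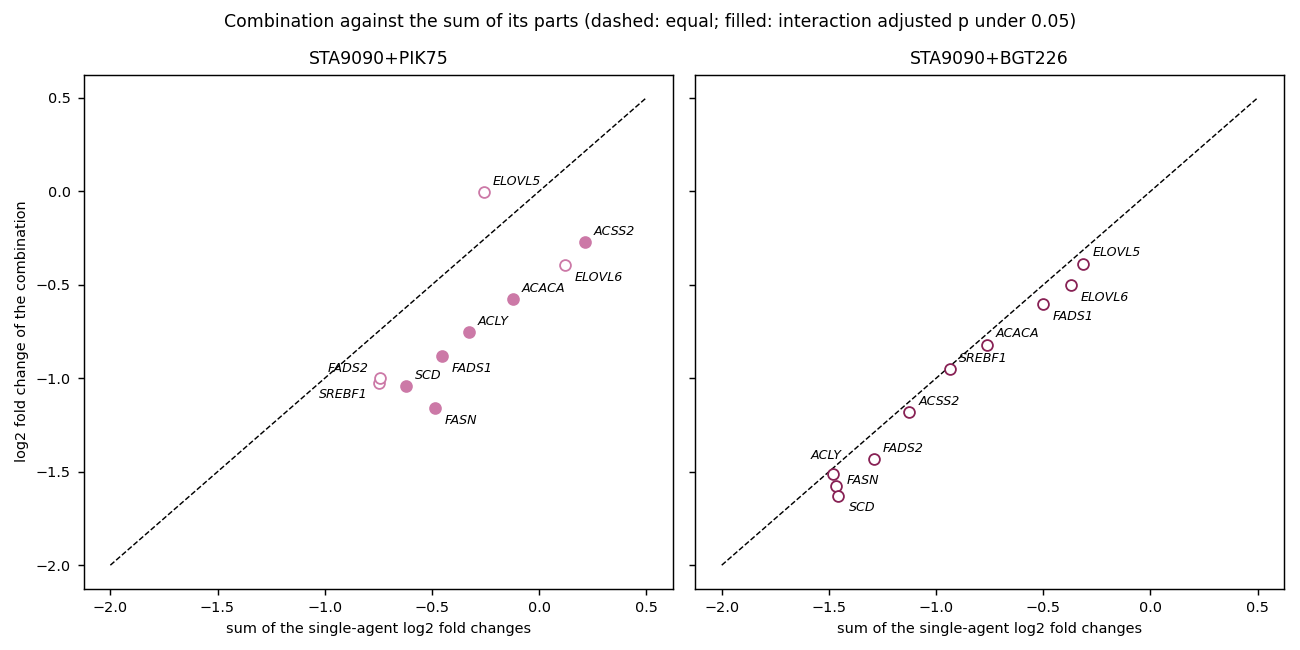
Log2 fold change of each combination against untreated cells (vertical axis) against the sum of the changes with STA9090 and with the PI3K inhibitor alone (horizontal axis), with a point for each gene and a dashed line where the 2 are equal. For STA9090+PIK75, 9 of the 10 genes lie below the line, and 6 are filled because their interaction passed, whereas for STA9090+BGT226 the 10 points differ from it by at most 0.17.

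Fewer of the genes passed when STA9090 was added to BGT226. SCD fell by 0.35 ± 0.09 against BGT226 (adjusted p = 0.0469), the 1 call among the 10 genes, where 1.70% of all genes fell. That call was lost when any of the 6 libraries was left out (adjusted p 0.0524 to 0.194). The fit of those 2 groups alone called 6 of the genes lower and DESeq2 called 4. Over all genes, 268 were lower in the main fit, 808 in those groups alone and 428 with DESeq2. In 7 of the 10 genes the 3 STA9090+BGT226 libraries lay below the 3 BGT226 libraries, as in 14.6% of all genes. Against STA9090 alone all 10 fell (20.9% of all genes), and the ELOVL6 call there was lost without STA9090 replicate 1 (adjusted p = 0.0538). The interaction passed for 0 of the 10 in edgeR, where 0.00633% of all genes passed in either direction, and for 0 in DESeq2. At an unadjusted edgeR p under 0.05 the interaction passed for 0 of the 10 and for 9.44% of all genes. Its 10 values ran from -0.17 for SCD to -0.02 for SREBF1. For FASN the 95% interval was -0.48 to 0.27, which holds differences as large as several of those called with PIK75.

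BGT226 and PIK75 at the same stated dose and time differed in 7 of the 10 genes, each lower with BGT226, where 16.5% of all genes were lower. The gaps were -1.34 for ACSS2, -1.16 for ACLY, -0.98 for FASN, -0.84 for SCD, -0.64 for ACACA, -0.55 for FADS2 and -0.49 for ELOVL6. The ELOVL6 call (adjusted p = 0.0486) was lost without PIK75 replicate 1 or 2 or BGT226 replicate 1 or 2 (0.0569 to 0.254) and without the 50 most counted genes (0.0532). SREBF1, FADS1 and ELOVL5 did not pass. With STA9090 present, 7 genes were again lower with BGT226 than with PIK75 (20.9% of all genes) and 1, FADS1, was higher (22.4% of all genes). The 7 were ACSS2 (-0.91), ACLY (-0.76), SCD (-0.59), FADS2 (-0.43), FASN (-0.42), ELOVL5 (-0.38) and ACACA (-0.24). FASN lost its call without STA9090+PIK75 replicate 1 (adjusted p = 0.0528), and ACACA without STA9090+PIK75 replicate 3 (0.0526) or STA9090+BGT226 replicate 2 (0.0569).

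The make-up of the pathway shifted as its total fell. FADS1 rose from 4.82% ± 0.464 of the reads of the 10 genes in untreated cells to 8.16% ± 0.0633 with BGT226 and 8.38% ± 0.288 with STA9090+BGT226, against 5.10% ± 0.183 with STA9090+PIK75 (SD, n = 3). ELOVL5 went from 1.72% ± 0.133 to between 3.21% and 3.49% in those 3 groups. ACLY took 7.78% ± 0.294 in untreated cells, 6.24% ± 0.146 with BGT226 and 9.04% ± 0.550 with STA9090+PIK75. FASN, SCD and FADS2 together supplied most of the reads in every group. A share can rise because the other genes fell, and FADS1 itself fell in both BGT226 groups.

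Levels between genes can be set side by side only per length. Divided by the union of exons of GENCODE 29, untreated cells held 252 CPM per kb of SCD, 138 of FASN, 92.1 of FADS2, 69.7 of ACLY and 1.32 of ELOVL6. Divided by the median length of its coding transcripts, FADS2 came first at 601 ± 68.3 CPM per kb, above SCD at 252 ± 1.24, and FADS1 moved from 21.9 to 129.8. SCD, FASN and FADS2 led and ELOVL6 came last by either length, and the order of SCD and FADS2 depends on which length is used.

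Across the 18 libraries SCD, FADS2, ACLY, ACACA and FASN moved closely together, each pair correlating at 0.903 or more. SREBF1 ran from 0.912 with FADS2 to 0.593 with ACSS2 and 0.323 with ELOVL5, and FADS1 was at 0.344 with ACSS2. Pearson correlations of log2(CPM + 0.5) were highest for SCD with FADS2 (0.969), SCD with ACLY (0.961), SCD with ACACA and ACLY with ACSS2 (both 0.957), and lowest for ELOVL5 with FADS1 (0.233). The median profile of the 10, which includes each gene itself, was followed most closely by SCD (0.985) and least by ELOVL5 (0.591). These describe 18 libraries that share the group differences above. Among 5917 other genes with a mean of at least 5 CPM and group means spread over at least 0.5 log2, those most like that profile included CDKN1A (0.986), LSS (0.983), TSPAN17, PLK1, FDFT1, EBP, DPYSL2, ANKRD52 and LETM1 (0.962). LSS, FDFT1 and EBP encode enzymes of cholesterol synthesis, CDKN1A encodes an inhibitor of the cell cycle, and PLK1 a mitotic kinase. CDKN1A was at -1.38 with BGT226, -1.07 with STA9090+PIK75, -1.65 with STA9090+BGT226, -0.27 with PIK75 and -0.0080 with STA9090.

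The rest of the pathway was read from lists of related genes, beside the share of all genes tested that passed. That share was 15.7% lower and 12.8% higher with BGT226, 20.1% and 18.3% with STA9090+PIK75, 20.4% and 19.4% with STA9090+BGT226, and 10.2% lower with PIK75. Among 6 genes that process or hold back SREBP, 4 fell with STA9090+PIK75, and 2 fell and 1 rose with BGT226, the last near the share of all genes. INSIG1, which holds the SREBP complex in the endoplasmic reticulum and is itself a SREBP target, was at 146.8 ± 5.76 CPM in untreated cells, 89.3 ± 6.003 with BGT226, 98.5 ± 5.96 with STA9090+PIK75 and 79.4 ± 2.96 with STA9090+BGT226 (SD, n = 3). It fell by 0.72, 0.58 and 0.89 and did not pass with PIK75 (-0.07). SREBF2, which encodes the SREBP of cholesterol synthesis, fell with STA9090+PIK75 (-0.64 ± 0.08, adjusted p = 1.60e-06) and did not pass with BGT226 (-0.12). The combinations differed for SREBF2, which was 0.47 ± 0.08 higher with STA9090+BGT226, and for MBTPS1, the protease that makes the earlier cut, which was 0.51 ± 0.06 higher.

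Of 9 genes that supply citrate and NADPH, 8 fell with BGT226, 8 with STA9090+PIK75, 8 with STA9090+BGT226 and 6 with PIK75. IDH1, the cytosolic NADP-linked isocitrate dehydrogenase, was at 49.3, 43.9 and 50.2 CPM in untreated cells, 62.6, 61.8 and 61.6 with STA9090, 38.2, 39.4 and 33.2 with PIK75, and 23.2, 24.5 and 25.5 with BGT226. The STA9090 libraries lay above, and the PIK75 and BGT226 libraries below, every untreated library. IDH1 rose by 0.38 ± 0.07 with STA9090 (edgeR adjusted p = 0.0118), a call lost in the fit of those 2 groups alone (0.38, adjusted p = 0.121), and fell by 0.96 ± 0.08 with BGT226. ME1, the malic enzyme, fell by 0.61 with PIK75 and 0.71 with BGT226, and SLC25A1, the citrate carrier, fell by 0.74 with BGT226 and did not pass with PIK75 (-0.26).

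Genes that carry or use fatty acids gave mixed counts. FABP3, a fatty acid carrier, had log2 fold changes of -1.27 with PIK75, -1.85 with BGT226, -2.002 with STA9090+PIK75 and -1.86 with STA9090+BGT226, falling from 14.4 ± 1.83 CPM in untreated cells to 3.62 ± 0.458 with STA9090+PIK75 (SD, n = 3). Of 15 tested genes of fatty acid oxidation, 6 fell and 2 rose with BGT226 and 7 fell and 1 rose with STA9090+PIK75, with list medians of -0.13 and -0.18, and the 2 that rose with BGT226 are near the 12.8% of all genes that did. ECI2, an isomerase of that route, fell by 0.60 with BGT226 and 0.91 with STA9090+PIK75, and CPT1A, the carnitine palmitoyltransferase of mitochondrial uptake, fell by 0.36 with BGT226. MLYCD, which breaks down malonyl-CoA, rose by 0.45 ± 0.09 with BGT226 (adjusted p = 0.000888) and by 0.40 ± 0.09 with STA9090+BGT226. Of 17 genes of glycerolipid synthesis and droplets, 3 fell with BGT226, near the 15.7% of all genes that fell, and 7 fell and 1 rose with STA9090+PIK75 (20.1% and 18.3% of all genes). LIPE, the hormone-sensitive lipase, fell by 0.82 with BGT226 and 0.69 with STA9090+PIK75.

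ABCA1, the sterol exporter and a known target of the LXR receptors, as SREBF1 is, moved in opposite directions in the 2 combinations. It was at 7.72, 6.22 and 6.51 CPM in untreated cells, 14.6, 14.5 and 14.9 with BGT226, 16.5, 13.6 and 14.7 with STA9090+BGT226, and 3.75, 3.90 and 5.03 with STA9090+PIK75. The libraries with BGT226 all lay above, and the STA9090+PIK75 libraries all below, the untreated ones. ABCA1 rose by 1.11 ± 0.15 with BGT226 and by 1.13 ± 0.14 with STA9090+BGT226 and fell by 0.68 ± 0.17 with STA9090+PIK75, and the combinations differed by 1.81 ± 0.16 (edgeR adjusted p = 1.51e-08). LPCAT3, another LXR target, which puts polyunsaturated chains into phospholipids, fell in all 4 treatments with a PI3K inhibitor, by 0.41, 0.42, 1.03 and 0.76 in the order PIK75, BGT226, STA9090+PIK75 and STA9090+BGT226.

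The remaining lists differed among themselves. Of 12 other elongases, desaturases and enzymes of the elongation cycle, 4 fell with BGT226, 4 with PIK75, 5 with STA9090+PIK75 and 7 with STA9090+BGT226, and 0 rose. Of all genes tested, 15.7%, 10.2%, 20.1% and 20.4% fell in that order. Of 12 tested acyl-CoA synthetases and carriers, 6 fell and 2 rose with BGT226, 6 fell and 2 rose with STA9090+PIK75, and 7 fell and 3 rose with STA9090+BGT226, where 20.4% of all genes fell and 19.4% rose. Of 6 genes of mitochondrial fatty acid synthesis, a route separate from FASN, 1 fell with BGT226, near the 15.7% of all genes that fell. With STA9090+PIK75, 0 of them passed. Of 11 LXR and carbohydrate-response genes, 2 fell and 2 rose with BGT226, near the 15.7% and 12.8% of all genes, and 5 fell and 1 rose with STA9090+PIK75 (20.1% and 18.3% of all genes). Of the 3 tested genes of the other carboxylase and its modulators, 1 rose with BGT226 (12.8% of all genes) and 1 fell with STA9090+PIK75 (20.1%).

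**Figure D4:**
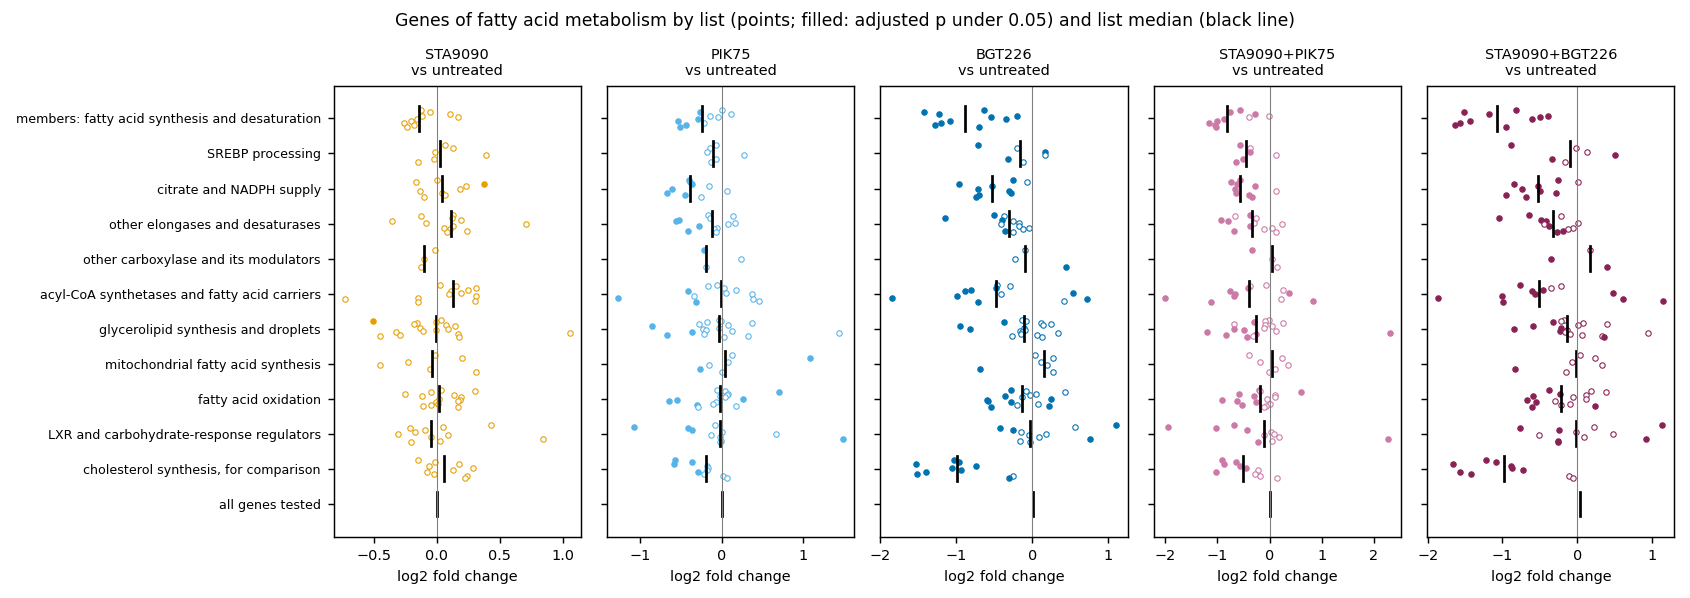
Log2 fold change against untreated cells (horizontal axes, a panel for each treatment) of each tested gene in 11 lists of lipid metabolism, as points that are filled where the adjusted p is under 0.05, with the list median as a black line and the median of all genes tested in the lowest line. With BGT226 the medians of the fatty acid synthesis list (-0.89) and of the cholesterol synthesis list (-0.996) lie farthest to the left.

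Cholesterol synthesis, the other pathway under SREBP control, fell alongside. Of 10 genes, 9 fell with BGT226 and 8 with STA9090+BGT226, 6 with STA9090+PIK75 and 4 with PIK75, with medians of -0.996, -0.98, -0.51 and -0.20. Of all genes tested, 15.7%, 20.4%, 20.1% and 10.2% fell in that order. FDPS, the farnesyl diphosphate synthase, fell by 1.54 with BGT226 and 0.88 with STA9090+PIK75. The adrenocortical markers did not follow the same order: all 7 fell with STA9090+PIK75 (median -1.29) and 5 with PIK75 (-0.88). With BGT226, 3 fell and 2 rose (-0.16), where 15.7% and 12.8% of all genes did.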

How the data were processed

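RNA of 18 NCI-H295R libraries was made into stranded total RNA libraries after ribosomal depletion and sequenced in pairs, per the labels' protocols. The authors deposited 1 table of RSEM expected counts per gene, not normalized, and per the submitters' processing notes bcl2fastq 2.20, cutadapt 1.18, STAR 2.7.0f, RSEM 1.3.1 and hg38 were used, and no source used here names the annotation release or the strand setting. From these deposited expected counts, rounded to whole numbers (at most 0.000381% of a library total), edgeR 4.0.16 in R 4.3.3 fitted all 18 libraries together with TMM factors (0.903 to 1.13), a filter of at least 10 counts by filterByExpr, and quasi-likelihood F-tests for 13 comparisons, adjusted by Benjamini-Hochberg over 15787 genes. Each SE was taken as |log2 fold change| over the root of F, and 95% intervals use a normal approximation. Totals of 10.24 to 21.13 M counts and a biological coefficient of variation of 10.6% set the precision. The steps were tested on simulated data.

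The genes and lists were chosen with earlier results of these data known. All 10 genes are named. Of the 10 other genes whose levels were most like theirs, those that are given are named, and the rest is not reported here. From each other list up to 3 genes per comparison with untreated cells are named. These are those with the smallest adjusted p that passed and had a mean of at least 5 CPM. For many of them only some comparisons are given, and a treatment left out may also have passed. Overlapping genes were taken from GENCODE 29. Alternatives were RLE scaling, no filter, a stricter filter, DESeq2 1.42.0, a replicate block, a fit of only the compared groups, leaving out the 50 most counted genes and leaving out each library in turn. Replicates are biological by the labels, and whether they came from separate cultures is not said, so p-values measure the spread between these libraries.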

Additional observations from a re-analysis of the deposited data

Results flagged for a closer look

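For 6 of the 10 genes the change with PIK75 differed by whether STA9090 was present, by edgeR's test of the interaction. The differences on the log2 scale were -0.67 for FASN, -0.49 for ACSS2, -0.45 for ACACA, -0.43 for FADS1, -0.43 for ACLY and -0.42 for SCD. Each was lower, as for 5.73% of all genes. Of these 6 calls, 1 was left in the fit of the compared groups alone and 2 to 5 with a library left out. The corresponding difference for BGT226 passed for 0 of the 10, where 0.00633% of all genes passed in either direction. The difference between these interactions was not tested.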

How the results depend on the processing

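No value changed its direction past the threshold. Of 909 values of the 10 genes under settings that kept all libraries, 881 stayed on their side of the threshold, 16 lost their call and 12 gained one, and of 900 with a library left out these were 828, 70 and 2. For the 100 calls of list genes against untreated cells that the naming rule picks, 1242 of 1300 such values kept the call and 58 lost it. Other scaling moved the median of all genes by at most 0.0174 log2.

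With STA9090, 183 genes rose and 265 fell in all, which became 369 and 400 with no filter, 0 and 4 in the compared groups alone, and 32 to 211 and 76 to 277 with a library left out. With PIK75, 1340 rose (853 to 1257 with a library left out) and 1607 fell (1066 in the groups alone), and the 5 members that fell became 3 in the groups alone and 3 to 4 with a library left out. For STA9090+BGT226 against BGT226, 156 rose and 268 fell, against 348 and 479 with no filter, 526 and 808 in the groups alone, 428 lower with DESeq2, and 35 to 107 and 99 to 157 with a library left out. The 1 member lower there became 2 with no filter, 4 with DESeq2, 2 without the 50 most counted genes, 6 in the groups alone and 0 in each fit with a library left out. For the PIK75 interaction, 559 and 904 genes became 294 and 515 in the groups alone, and 344 to 571 were higher with a library left out, while the 6 members lower became 1 in the groups alone and 2 to 5 with a library left out, with 0 to 1 higher. For the BGT226 interaction, 1 and 0 became 82 and 187 with no filter, 17 and 18 with DESeq2, and 0 to 3 and 0 to 3 with a library left out. Members higher with STA9090+BGT226 than with STA9090+PIK75 numbered 0 to 1 with a library left out, as did those higher with STA9090+PIK75 than with PIK75. Why the counts moved was not tested.

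No pairing by equal replicate number was seen: 13 of 45 same-numbered pairs correlated over 0.1, and 4 of 18 libraries correlated best with their own number. Same-numbered pairs ran from -0.485 to 0.458 (median -0.04, against 0.02 for other numbers). Whether libraries shared a culture or a batch was not tested. With the replicate number as a block, 0 members were lower with STA9090+BGT226 than with BGT226 (SCD, adjusted p = 0.0635). The fall of ACLY with PIK75 (0.0528), the interactions of SCD (0.0583) and ACLY (0.0514), ELOVL6 between BGT226 and PIK75 (0.0527), the fall of NDUFAB1 with PIK75 (0.0531) and the rise of MBTPS1 with BGT226 (0.058) also lost their calls. That rise of MBTPS1 was lost as well with no filter (edgeR adjusted p = 0.336). Leaving out any untreated library or BGT226 replicate 2 or 3 lost it too (0.0608 to 0.190).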

Other observations

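AGPAT2, an acyltransferase of phosphatidic acid synthesis, was the 1 gene of the glycerolipid list that fell with STA9090, at 12.7, 16.8 and 16.3 CPM against 18.7, 24.9 and 21.1 in untreated cells. Its log2 fold change was -0.51 ± 0.13 (SE, edgeR adjusted p = 0.0398), and it did not pass with PIK75 (-0.0042) or BGT226 (-0.08). The STA9090 call was lost in the fit of those 2 groups alone and without untreated replicate 2 or 3 or STA9090 replicate 1 (adjusted p 0.0933 to 0.180). ACSS1, the mitochondrial counterpart of ACSS2, fell with PIK75 (-0.41) as well as with BGT226 (-0.89) and STA9090+PIK75 (-0.76). ELOVL3, an elongase of saturated and monounsaturated chains, fell with BGT226 (-1.15) and STA9090+BGT226 (-1.04) and did not pass with PIK75 (-0.14) or STA9090+PIK75 (-0.25). NDUFAB1, the mitochondrial acyl carrier protein, fell with BGT226 (-0.69), STA9090+BGT226 (-0.83) and PIK75 (-0.27, adjusted p = 0.0387) and did not pass with STA9090+PIK75 (0.11). Its PIK75 call was lost with DESeq2, in the fit of those 2 groups alone, and without untreated replicate 2 or 3 or PIK75 replicate 3 (adjusted p 0.0532 to 0.167). SLC27A4, a fatty acid transporter, fell with all 4 treatments that held a PI3K inhibitor, from -0.31 with PIK75 to -1.12 with STA9090+PIK75, and the PIK75 call was lost without untreated replicate 2 (adjusted p = 0.0662) or PIK75 replicate 2 (0.0623).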
